A study of Homo sapiens with 18 samples.

Results

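The genes of the mitochondrial genome were taken as every gene that the deposited count table places on chromosome M, which gave 37 of the 60707 genes read from it. They comprise 13 genes for mRNAs, 2 for ribosomal RNAs (rRNAs) and 22 for transfer RNAs (tRNAs). They were followed in 18 RNA sequencing libraries of Raji, an established cell line from a human Burkitt lymphoma, a tumour of B cells, with the genotype label Smarca4+/+. The study uses an auxin-inducible degron to deplete SMARCA4, the ATPase of the BAF chromatin remodelling complex. The 6 groups of 3 libraries were GFP high and GFP low cells at 24, 48 and 72 h, all of the same line and genotype label. Some column names of the count table join GFP to BRG1, another name of SMARCA4. Beyond that name, the sources used here do not give what GFP reports. They also do not give how the fractions were separated, when the hours start, which groups received auxin or whether the line is a single clone. No fraction is therefore described as having lost the protein. Nothing in the labels says that the libraries of a group are separate cultures. P-values then cover only the spread among these libraries, and that spread may be technical.

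Human mitochondria keep a small circular genome whose mRNAs encode core subunits of the respiratory chain, the membrane complexes that move electrons to oxygen and use the resulting proton gradient to make ATP. A dedicated polymerase, POLRMT, copies each strand into a long precursor, and tRNAs that lie between the other genes mark where the precursor is cleaved. Genes copied from the heavy-strand promoter include both rRNAs and all mRNAs but MT-ND6, while the light-strand promoter gives MT-ND6 and a smaller set of tRNAs; below, heavy-strand and light-strand genes mean genes expressed from these promoters.

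The libraries held 27257876 to 55419458 counts in genes, of which 890290 to 2371111 came from the mitochondrial mRNAs, 2162 to 5447 from the tRNA genes and 5 to 917 from the rRNA genes. The mRNAs therefore made up 99.7% to 99.8% of mitochondrial counts. The B cell markers MS4A1 (428 to 809 CPM), CD79A (291 to 382 CPM), CD79B (276 to 414 CPM), PAX5 (322 to 457 CPM) and CD22 (476 to 771 CPM) were present in every library, where CPM are counts scaled to 1e+06 per library by TMM factors. The 7 T cell markers summed in GFP high libraries to 45.7-48.9 CPM (24 h), 44.1-47.3 CPM (48 h) and 54.5-56.9 CPM (72 h). In GFP low libraries they summed to 23.7-26.3, 36.9-40.3 and 38-41 CPM at those times, mostly through TRBC2 and LCK, while CD3D and CD3E reached at most 3.39 and 1.01 CPM. The 5 myeloid markers summed to at most 2.53 CPM. The 6 epithelial and fibroblast markers summed to 7.31-7.92 CPM in GFP high and 12.8-15.5 CPM in GFP low libraries at 24 h, 4.91-6.78 and 6.96-8.03 CPM by 48 h, and 2.90-3.52 and 2.96-3.997 CPM by 72 h. COL1A1 (up to 9.61 CPM) and VIM (up to 6.03 CPM) made up nearly all of that sum, and EPCAM, KRT8 and KRT18 were at or near 0. Of the erythroid markers, HBA1 was at 0 in every library, HBB at most at 0.839 CPM and HBD at most at 3.29 CPM. The part of these markers in the results below was not tested.

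The 2 strands differ in base composition, which can be seen at the start of 3 mRNAs. The sequences are from the transcripts of GENCODE release 29 on GRCh38, 5′ to 3′, with G in capitals. They show MT-ND6, the light-strand mRNA (chrM:14614-14673, minus strand), MT-CYB, its heavy-strand neighbour (chrM:14747-14806, plus strand), and MT-CO2, the mRNA with the largest difference at 24 h (chrM:7586-7645, plus strand).
MT-ND6: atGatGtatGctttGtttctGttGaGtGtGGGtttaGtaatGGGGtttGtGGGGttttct
MT-CYB: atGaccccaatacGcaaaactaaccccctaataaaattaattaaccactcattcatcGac
MT-CO2: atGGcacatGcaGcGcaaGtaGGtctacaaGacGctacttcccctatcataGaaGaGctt
G made up 35.6% of MT-ND6 and C 7.05%, whereas G made up 6.28% to 16.2% and C 29.5% to 36.0% of the 12 heavy-strand mRNAs. The G content of the tRNAs also differed by strand, with 23.5% to 36.1% in the 8 light-strand and 10.3% to 19.1% in the 14 heavy-strand genes, while their C content overlapped. MT-TQ (chrM:4329-4400, minus strand) and MT-TS1 (chrM:7446-7514, minus strand) are the light-strand tRNAs that were higher in GFP low cells at 24 h, and MT-TM (chrM:4402-4469, plus strand) and MT-TT (chrM:15888-15953, plus strand) are heavy-strand tRNAs that were lower. The light-strand genes are 2 of 7 tested, about the 29.3% of all genes higher at 24 h, and both were lower at 48 h. The call of MT-TT did not hold without some single libraries, as given below. A relation between base content and direction was not tested.
MT-TQ: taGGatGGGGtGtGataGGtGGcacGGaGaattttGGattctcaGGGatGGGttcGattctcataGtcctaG
MT-TS1: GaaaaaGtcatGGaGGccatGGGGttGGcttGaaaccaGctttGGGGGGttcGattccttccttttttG
MT-TM: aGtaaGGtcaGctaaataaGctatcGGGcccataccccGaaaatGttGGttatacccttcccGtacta
MT-TT: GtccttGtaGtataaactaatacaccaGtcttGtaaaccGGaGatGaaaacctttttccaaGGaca

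How reads were assigned bears on several of these genes. Of 492 genes that lie within a gene on the same strand whose mean count is at least 100, 0 had a mean count of at least 10, against 61 of 358 (17.0%) that lie within a gene on the opposite strand. Reads on both strands were thus told apart in the table, and reads shared by genes of the same strand were left uncounted. MT-ATP8 and MT-ATP6 overlap by 46 bases, shown in capitals in MT-ATP8 (chrM:8366-8572, plus strand), and MT-ND4L and MT-ND4 by 7 bases, shown in capitals at the end of MT-ND4L (chrM:10707-10766, plus strand).
MT-ATP8: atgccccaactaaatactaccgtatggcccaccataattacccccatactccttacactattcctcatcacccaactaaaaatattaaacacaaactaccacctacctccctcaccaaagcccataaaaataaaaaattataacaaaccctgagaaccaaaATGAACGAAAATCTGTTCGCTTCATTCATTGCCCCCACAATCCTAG
MT-ND4L: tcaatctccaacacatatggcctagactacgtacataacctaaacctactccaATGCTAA
Reads that span 2 of these genes, or a tRNA gene and a gene that adjoins it on the same strand, are therefore not counted for either; several light-strand tRNAs, MT-TS1 among them, have no such neighbour.

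Per kilobase of gene, the 3 mRNAs for the catalytic core of cytochrome c oxidase, the terminal complex (complex IV), had the highest levels, with means over all libraries of 5920 CPM per kb for MT-CO1, 5682 for MT-CO3 and 5269 for MT-CO2. Of the mRNAs for complex I, which takes electrons from NADH, MT-ND4 stood at 3462 CPM per kb, MT-ND1 at 2362, MT-ND5 at 1618, MT-ND2 at 1578, MT-ND3 at 1245 and MT-ND4L at 1153. MT-ATP6 and MT-ATP8, which encode subunits of the membrane part of ATP synthase (complex V), had 2960 and 2925 CPM per kb, and MT-CYB, the mitochondrial subunit of complex III, had 2484. MT-ND6, another complex I subunit, was the lowest mRNA, at 323 CPM per kb. The range over libraries of MT-CO1 (4291 to 7694), MT-CO3 (4390 to 7724) and MT-CO2 (3972 to 7659) overlapped almost wholly, so that their order was not the same in every group, and the same held for MT-ATP6 and MT-ATP8. The coefficient of variation within a group was 3.41% in the median over the mRNAs and groups, and 0.754% to 10.4% in all.

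The 13 mRNAs together took a smaller share of counts in GFP low than in GFP high cells at 24 and 48 h and a larger one at 72 h. At 24 h the share was 4.61%, 4.26% and 4.28% in the GFP high and 3.63%, 3.47% and 3.47% in the GFP low libraries. By 48 h it had come to 3.77%, 3.61% and 3.67% against 2.94%, 2.86% and 2.86%. The 72 h libraries gave 2.78%, 2.66% and 2.67% against 3.97%, 3.80% and 3.85%. The groups did not overlap at any time, and at 72 h their order was the opposite of that at 24 and 48 h. The differences of the means were -0.859, -0.796 and 1.17 percentage points. These are shares of the RNA sequenced, and in bulk RNA fewer cells with a given level and less RNA per cell cannot be told apart.

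**Figure D1:**
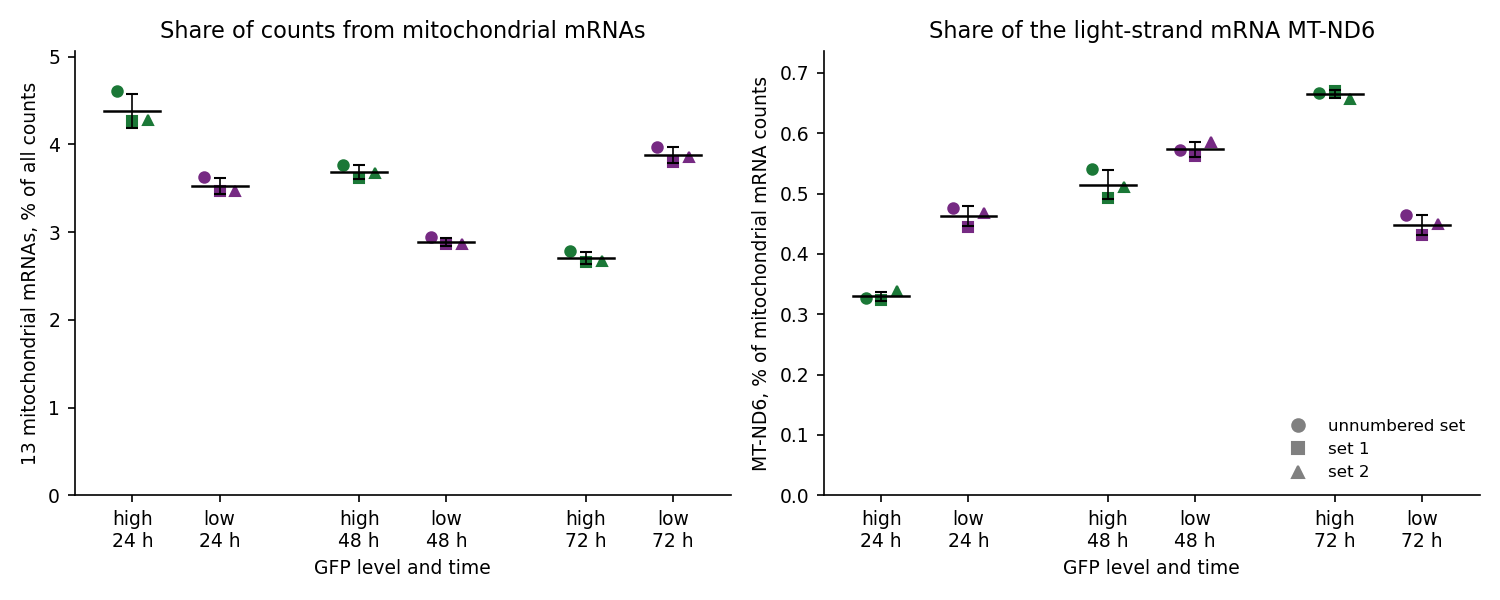
Left, share of all counts from the 13 mitochondrial mRNAs; right, share of MT-ND6, the light-strand mRNA, among them. Each point is a library, its shape gives the library set, and bars show the mean ± SD of 3 libraries by GFP level and time. The mRNA share was lower in GFP low cells at 24 and 48 h and higher at 72 h, and the MT-ND6 share moved the opposite way.

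At 24 h GFP low cells had lower levels of all 12 heavy-strand mRNAs. The test was edgeR's quasi-likelihood F test, adjusted by Benjamini and Hochberg over 16474 genes, by which 28.5% of all genes were lower and 29.3% higher. Their log2 fold changes ran from -0.78 to -0.32, with a median of -0.47, beside 0.03 over all genes. MT-CO2 stood at 5239, 4921 and 5032 CPM in GFP high and 2988, 2903 and 2955 CPM in GFP low libraries, a log2 fold change of -0.78 ± 0.02 (SE; edgeR adjusted p = 1.12e-18). MT-CO1, from the same complex, stood at 11864, 11117 and 11215 against 9399, 8919 and 9033 CPM (-0.32 ± 0.03; edgeR adjusted p = 3.52e-10). Neither gene overlapped between the groups, and MT-CO2 differed by more than MT-CO1. By complex, the log2 fold changes at 24 h were -0.66 for MT-ND3 to -0.32 for MT-ND5 among the heavy-strand mRNAs of complex I, -0.35 for MT-CYB, -0.78 to -0.32 for complex IV, and -0.60 and -0.65 for MT-ATP8 and MT-ATP6. At 24 h short nuclear genes were low as well. The 572 nuclear protein-coding genes no longer than the longest mitochondrial mRNA (1812 bases of exon, mean of at least 1 CPM) had a median of -0.52 (quartiles -0.75 and -0.26). When the relation between a library's counts and gene length was taken out, 7 of the 13 mRNAs were called at 24 h, 6 lower and MT-ND6 higher, and MT-CO1 stood at -0.02.

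The 48 h comparison gave lower values for all 13 mRNAs, where 13.2% of all genes were lower and 10.6% higher. The heavy-strand mRNAs lay between -0.49 for MT-ATP6 and -0.31 for MT-ND5, with a median of -0.42, beside -0.01 over all genes. MT-CO2 stood at 3720, 3647 and 3775 CPM in GFP high and 2756, 2776 and 2717 CPM in GFP low libraries (-0.43 ± 0.02; edgeR adjusted p = 3.28e-13). MT-CO1 stood at 10266, 9818 and 9966 against 7986, 7692 and 7777 CPM (-0.36 ± 0.03). For both genes the groups did not overlap. The 572 short nuclear genes had a median of 0.02 at this time (quartiles -0.08 and 0.12), and all 13 mRNAs were called lower with the length relation removed as well.

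By 72 h the 12 heavy-strand mRNAs were higher in GFP low cells, where 12.9% of all genes were higher and 13.5% lower. Their log2 fold changes lay between 0.42 for MT-ND3 and 0.61 for MT-ATP6, with a median of 0.53, beside 0.00 over all genes and 0.00 over the short nuclear genes (quartiles -0.11 and 0.10). MT-CO2 stood at 2878, 2809 and 2880 CPM in GFP high and 4296, 4258 and 4322 CPM in GFP low libraries. MT-CO1 stood at 7006, 6769 and 6617 against 9891, 9451 and 9540 CPM. The log2 fold changes were 0.59 ± 0.02 for MT-CO2 and 0.50 ± 0.03 for MT-CO1, and neither gene overlapped between the groups.

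MT-ND6 did not follow the heavy-strand mRNAs at 24 and 72 h, and at 48 h it was lower in GFP low cells as they were. Its levels at 24 h were 156, 142 and 149.7 CPM in GFP high and 164, 145 and 154 CPM in GFP low libraries. The 48 h levels were 206, 178 and 189.8 against 166, 158 and 165 CPM, and those of 72 h 188, 179.9 and 177 against 188, 166 and 176 CPM. The groups overlapped at 24 and 72 h and not at 48 h. The log2 fold changes were 0.05 ± 0.05 at 24 h (edgeR adjusted p = 0.449), -0.23 ± 0.05 at 48 h (edgeR adjusted p = 0.00181) and -0.04 ± 0.05 at 72 h (edgeR adjusted p = 0.666). With libraries scaled by total counts alone, which moved the median over all genes at 24 h to 0.16, the value of MT-ND6 at 24 h was 0.18 and passed the test.

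As a share of the 13 mRNAs, MT-ND6 made up 0.324-0.338% (24 h), 0.492-0.541% (48 h) and 0.657-0.670% (72 h) in GFP high cells. In GFP low cells these shares were 0.444-0.476%, 0.562-0.586% and 0.431-0.464%. The share was higher in GFP low cells at 24 and 48 h and lower at 72 h, without overlap. Averaged over the 3 times, the difference was -0.008 percentage points (exact permutation test within times, two-sided p = 0.831). Between 24 and 72 h the difference changed by -0.349 percentage points (exact permutation test, p = 0.005, or 0.0217 adjusted over the 13 tests of this kind). That p is the smallest that 400 arrangements can give. Groups that lie apart in opposite directions at both times always give it. The test of the average was planned and that of the change was not. Within 1 time, 3 libraries against 3 cannot give a p below 0.1.

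**Figure D2:**
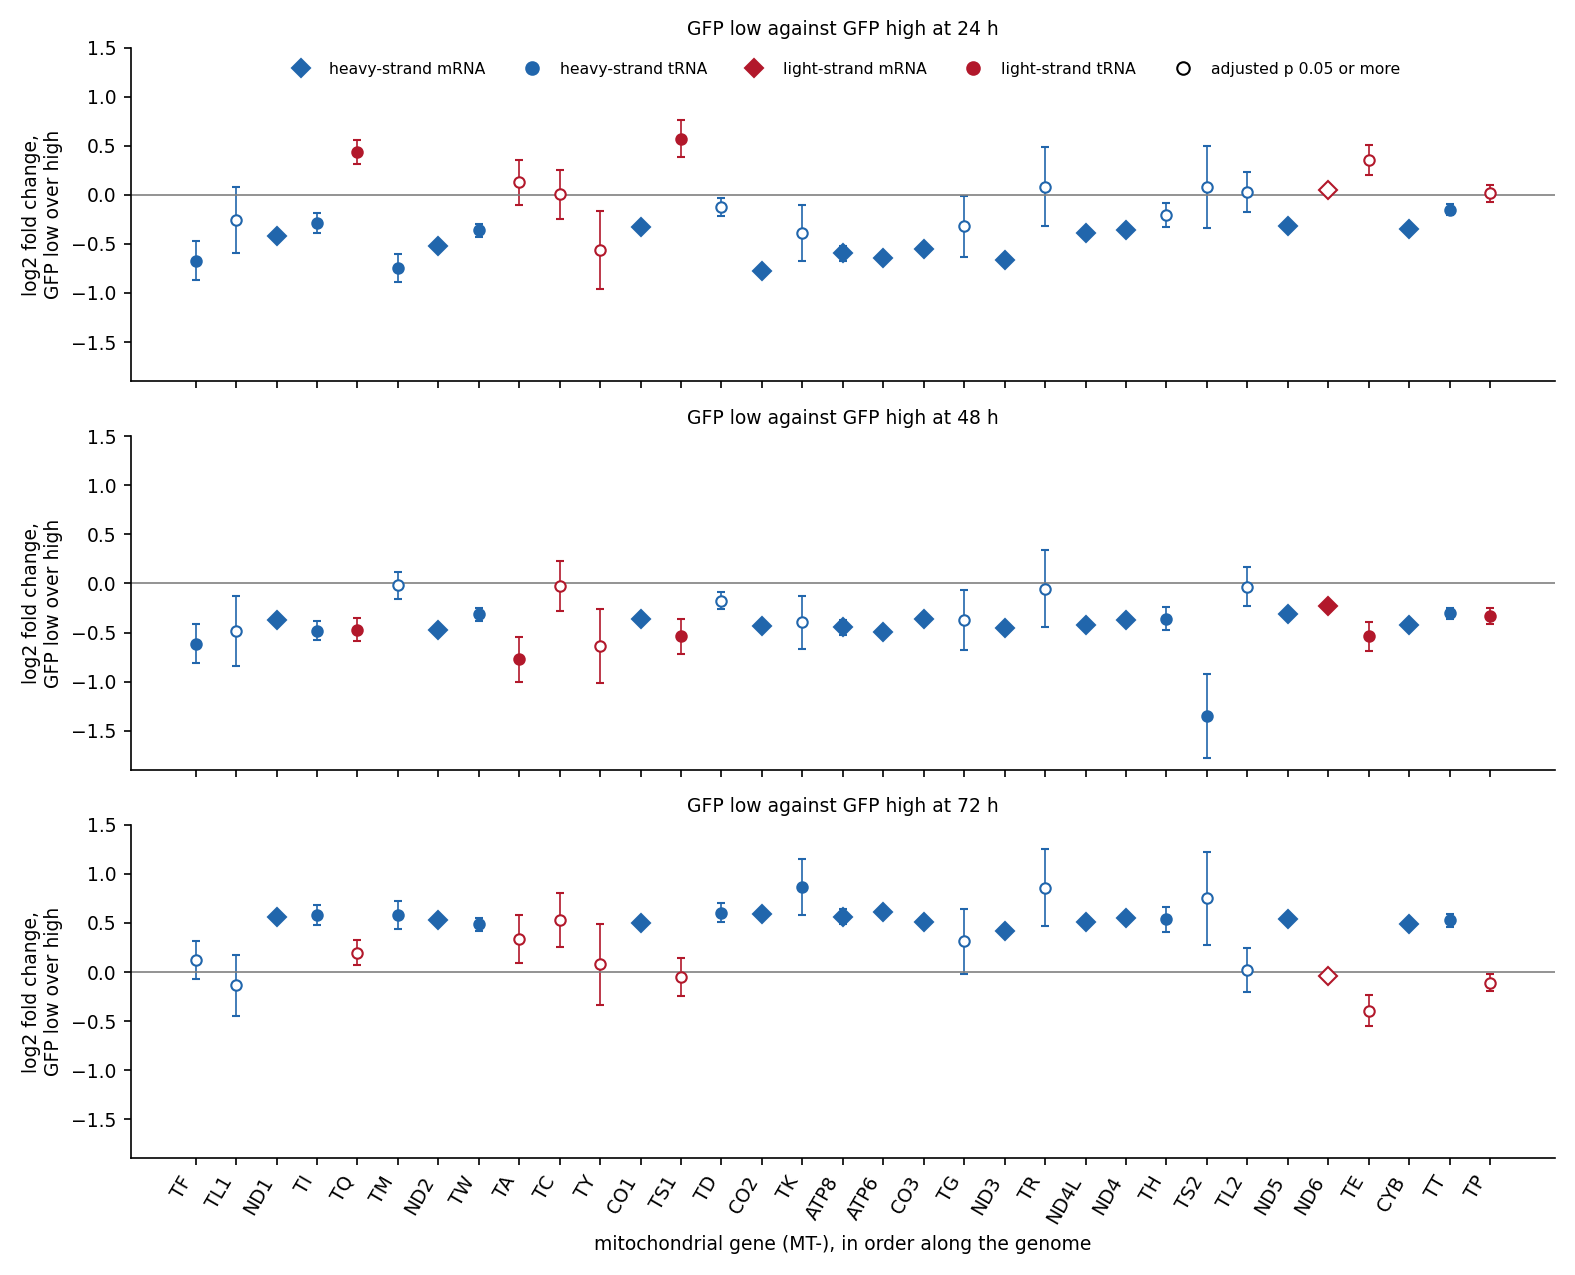
Log2 fold change of GFP low over GFP high cells with its SE at 24, 48 and 72 h for the 13 mRNAs and the 20 tRNA genes tested, in order along the genome. Diamonds are mRNAs and circles tRNAs, colours give the strand, and filled symbols passed the test. The heavy-strand mRNAs lie below 0 at 24 and 48 h and above 0 at 72 h, and MT-ND6 lies near 0 at 24 and 72 h.

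The change of the difference between times was tested in the same fit. From 24 to 72 h it was higher for all 12 heavy-strand mRNAs (22.2% of all genes higher and 19.6% lower), by 0.82 for MT-CO1 to 1.37 for MT-CO2. It was -0.08 ± 0.07 for MT-ND6, which did not pass. This change takes in the 24 h difference, for which fewer mRNAs were called with the length relation removed. Across the 12 genes Spearman's rho between the change and gene length was -0.678. From 48 to 72 h it was higher for the same 12 genes (5.19% of all genes higher and 3.83% lower), by 0.84 for MT-ND5 to 1.11 for MT-ATP6. From 24 to 48 h, 4 of the 13 changed (22.1% of all genes higher and 21.4% lower): MT-CO2 by 0.35 ± 0.03, MT-CO3 by 0.18 ± 0.04 and MT-ND3 by 0.21 ± 0.07 towards higher values in GFP low cells, and MT-ND6 by -0.28 ± 0.07. With the library set as a replicate block 9 changed from 24 to 48 h, 6 higher and 3 lower. With the length relation removed 9 changed as well, all lower. Both the count and the direction of this change therefore depend on the model.

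Within GFP high cells, heavy-strand mRNA levels fell at each step. From 24 to 48 h all 12 fell (9.97% of all genes lower), by 0.45 for MT-CO2 to 0.19 for MT-CO1 on the log2 scale. MT-ND6 rose by 0.36 ± 0.05 (10.6% of all genes higher). From 48 to 72 h the 12 fell again (14.2% of all genes lower, 13.7% higher; median -0.39), and MT-ND6 stood at -0.08 ± 0.05. Over the whole interval the 12 fell (15% of all genes lower; median -0.72) and MT-ND6 rose by 0.28 ± 0.05 (13.9% of all genes higher). Light-strand tRNAs, described below, moved with MT-ND6 over the first step: MT-TQ rose by 0.52 ± 0.12, MT-TS1 by 0.88 ± 0.19, MT-TE by 0.60 ± 0.15 and MT-TP by 0.29 ± 0.08, 4 of 7 tested, while none of 13 heavy-strand tRNAs passed. Over the step from 48 to 72 h MT-TQ, MT-TS1, MT-TE and MT-TA fell, by 0.83, 0.82, 0.45 and 0.71, together with 7 heavy-strand tRNAs.

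GFP low cells had their lowest heavy-strand mRNA levels at 48 h. From 24 to 48 h all 12 fell (25.1% of all genes lower, 25.7% higher), with a median of -0.23. From 48 to 72 h all 12 rose (13.9% of all genes higher, 12.5% lower), by 0.30 for MT-CO1 to 0.71 for MT-ND4L. At 72 h all 13 mRNAs exceeded their level at 24 h (29.6% of all genes higher, 27.5% lower), from 0.08 ± 0.03 for MT-CO1 to 0.54 ± 0.02 for MT-CO2, and MT-ND6 rose by 0.20 ± 0.05. Of the tRNAs, 5 heavy-strand genes were higher than at 24 h and 1, MT-TT, lower, while the light-strand MT-TQ, MT-TS1 and MT-TE were lower, at -0.55, -0.56 and -0.60. With the length relation removed, 5 of the 13 were lower and 1 higher in this last comparison. Each of these time comparisons shares libraries with those between GFP levels, so that a low value in 1 group enters several of them.

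At 24 h the shorter heavy-strand mRNAs tended to have the larger differences. MT-ATP8 and MT-ATP6 are carried by 1 RNA, as are MT-ND4L and MT-ND4, and members of each pair had like values, -0.60 and -0.65 for the first and -0.39 and -0.36 for the second, although MT-ND4L spans 297 bases and MT-ND4 1378. Across the 12 genes Spearman's rho between the fold change and the span of the RNA was 0.905 at 24 h, 0.509 at 48 h and -0.084 at 72 h, and with the length of the gene alone it was 0.755, 0.657 and -0.175. The genes share their libraries and are not independent replicates. The ratio of MT-CO2 to MT-CO1 counts at 24 h was 0.444 ± 0.004 in libraries of GFP high and 0.323 ± 0.005 in those of GFP low cells (SD, n = 3). It was 0.371 ± 0.008 and 0.352 ± 0.008 by 48 h, then 0.420 ± 0.013 and 0.446 ± 0.010 by 72 h. GFP low cells at 24 h thus held the least MT-CO2 relative to MT-CO1 of the 6 groups, and GFP high cells at 24 h and GFP low cells at 72 h the most.

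Of the 22 tRNA genes, 20 passed the filter on low counts; MT-TV and MT-TN, with at most 14 and 4 counts in a library, did not. A count at a tRNA gene can come from the mature tRNA or from a longer precursor. The highest mean levels per kilobase over all libraries were those of MT-TT, the tRNA for threonine (441 CPM per kb), MT-TW for tryptophan (211) and MT-TP for proline (125). All 3 lie beside sequence without an annotated gene on their own strand, but so do MT-TA and MT-TY, at 14.4 and 3.82 CPM per kb. MT-TV, which lies without a gap between the 2 rRNA genes, had 1.31 CPM per kb. MT-TH and MT-TL2, also without a gap on either side, had 47.0 and 20.5 CPM per kb. A relation between level and neighbouring sequence was not tested.

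The tRNA counts below are given by strand, and no test compared the strands. At 24 h, 5 of the 13 heavy-strand tRNAs tested were lower (28.5% of all genes) and 0 higher: MT-TF for phenylalanine (-0.67 ± 0.20), MT-TM for methionine (-0.75 ± 0.14), MT-TW (-0.36 ± 0.07), MT-TI for isoleucine (-0.29 ± 0.10) and MT-TT (-0.15 ± 0.06). Of the 7 light-strand tRNAs tested, 2 were higher and 0 lower, where 29.3% of all genes were higher. MT-TQ, for glutamine, stood at 3.52, 3.28 and 3.72 CPM in GFP high and 5.35, 4.75 and 4.27 CPM in GFP low libraries (0.44 ± 0.12; edgeR adjusted p = 0.00322). MT-TS1, for serine, stood at 1.59, 1.38 and 2.15 against 2.95, 2.20 and 2.61 CPM (0.57 ± 0.19; edgeR adjusted p = 0.013). Neither gene overlapped between the groups. The call of MT-TS1 was lost without the unnumbered GFP low library (adjusted p = 0.064) or without set 1 of GFP high (adjusted p = 0.0671). MT-TT did not hold without the unnumbered GFP high library (adjusted p = 0.132), set 1 of GFP low (adjusted p = 0.072) or set 2 of GFP low (adjusted p = 0.137), nor MT-TI without set 2 of GFP high (adjusted p = 0.153) or set 1 of GFP low (adjusted p = 0.0535). With total counts MT-TI stood at -0.16 and MT-TT at -0.02, neither past the test, and with the length relation removed MT-TI, MT-TW and MT-TT stood at 0.07, 0.0027 and 0.21.

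At 48 h both strands moved the same way: 6 heavy-strand and 5 light-strand tRNAs were lower (13.2% of all genes) and 0 higher. The light-strand genes were MT-TQ (-0.47 ± 0.12), MT-TA for alanine (-0.77 ± 0.23), MT-TS1 (-0.54 ± 0.18), MT-TE for glutamate (-0.54 ± 0.15) and MT-TP (-0.33 ± 0.08). The heavy-strand genes were MT-TF (-0.61 ± 0.20), MT-TI (-0.48 ± 0.10), MT-TW (-0.31 ± 0.07), MT-TH for histidine (-0.36 ± 0.12), MT-TS2 for serine (-1.35 ± 0.43) and MT-TT (-0.30 ± 0.06). Of these 11, MT-TA, MT-TS1, MT-TE, MT-TF, MT-TH and MT-TS2 each lost the call without 1 of 2 to 4 single libraries, with adjusted p values of up to 0.231, and MT-TS2 had at most 34 counts in a library.

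At 72 h, 7 heavy-strand tRNAs were higher in GFP low cells (12.9% of all genes) and 0 lower: MT-TI (0.58 ± 0.10), MT-TM (0.58 ± 0.14), MT-TW (0.49 ± 0.07), MT-TD for aspartate (0.60 ± 0.10), MT-TK for lysine (0.87 ± 0.29), MT-TH (0.54 ± 0.13) and MT-TT (0.53 ± 0.07). The median of the 13 heavy-strand tRNAs tested was 0.54, close to the 0.53 of the heavy-strand mRNAs, and that of the 7 light-strand tRNAs was 0.08. The light-strand values ran from -0.39 to 0.53, and their median is that of MT-TY (0.08 ± 0.41), which had only 6 to 16 counts in a library. None of the light-strand tRNAs passed the test, with MT-TE at -0.39 ± 0.16 (edgeR adjusted p = 0.0729) and MT-TC for cysteine at 0.53 ± 0.28. MT-TK, with 10 to 49 counts, lost its call without the unnumbered library of GFP high (adjusted p = 0.131) or GFP low cells (adjusted p = 0.183).

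Summed over genes, light-strand tRNAs made up 16.0-17.6% of tRNA counts at 24 h, 21.8-23.2% at 48 h and 24.8-26.6% at 72 h in GFP high libraries. GFP low libraries had 21.2-23.2%, 20.6-21.8% and 19.2-19.9%. GFP high cells had the lowest share of the 6 groups at 24 h and the highest at 72 h. This order depends on MT-TT. By the means given here, without MT-TT GFP high cells would be neither the lowest at 24 h nor the highest at 72 h. The light-strand sums at 24 and 72 h were 17.3 and 17.1 CPM in GFP high and 20.2 and 16.6 CPM in GFP low cells. The mean of MT-TT in GFP high cells was 39.3 CPM at 24 h and 14.9 CPM at 72 h, within heavy-strand sums of 85.6 and 49.1 CPM. GFP low cells had 35.4 and 21.3 CPM within 72.1 and 68.7 CPM. The difference between GFP levels changed by -11.3 percentage points from 24 to 72 h. The single tests of that change were higher for 8 heavy-strand tRNAs (22.2% of all genes) and lower for 1 light-strand tRNA, MT-TE (-0.75 ± 0.22; edgeR adjusted p = 0.00858; 19.6% of all genes).

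**Figure D3:**
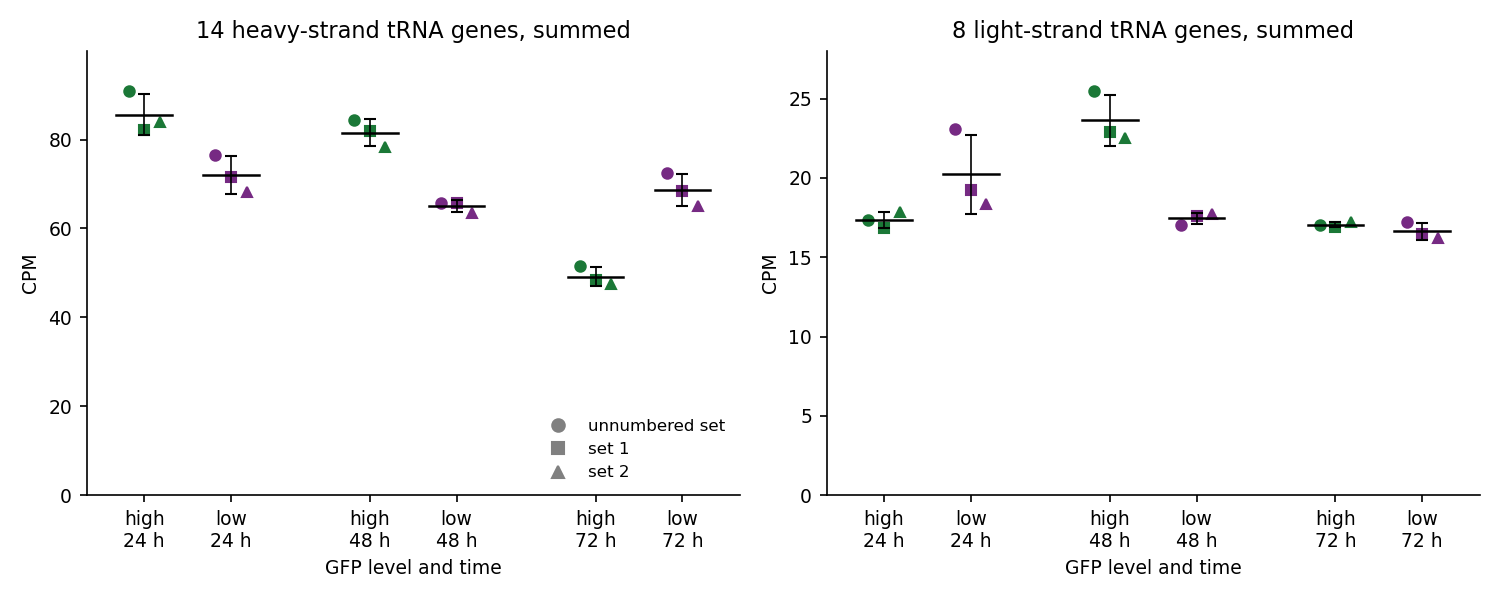
Summed level in CPM of the 14 heavy-strand (left) and 8 light-strand (right) mitochondrial tRNA genes in each library, with the mean ± SD of 3 libraries; shapes give the library set. The heavy-strand sum was lowest in GFP high cells at 72 h, 47.5 to 51.6 CPM, and the light-strand sum highest in GFP high cells at 48 h, 22.5 to 25.5 CPM.

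MT-TT, whose sequence is shown above, fell with time in both fractions. In GFP high cells it stood at 41.3, 37.9 and 38.7 CPM at 24 h, at 35.04, 37.3 and 33.5 CPM at 48 h, and at 15.4, 15.4 and 13.8 CPM at 72 h. In GFP low cells the levels were 37.5, 35.2 and 33.5, then 27.9, 30.8 and 27.2, then 22.4, 20.8 and 20.7 CPM. Both series were lowest at 72 h, without overlap with earlier times. From 48 to 72 h it fell by 1.25 ± 0.06 in GFP high cells (edgeR adjusted p = 2.53e-12) and by 0.42 ± 0.06 in GFP low cells (edgeR adjusted p = 1.43e-05), where MT-CYB, the gene directly before it on the same strand, moved by -0.39 ± 0.03 and 0.52 ± 0.03. The ratio of MT-TT to MT-CYB counts in GFP high cells was 0.0109, 0.0120 and 0.00661 in order of time, and in GFP low cells 0.0125, 0.0130 and 0.00675.

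The rRNAs were removed before sequencing by the RiboErase step of library preparation, so the counts of MT-RNR1 and MT-RNR2, the small and large rRNA of the mitochondrial ribosome, are what depletion left and not levels in the cell. MT-RNR1 had 275, 224 and 354 counts and MT-RNR2 462, 366 and 563 counts in the GFP high libraries at 72 h. In the other 15 libraries MT-RNR1 had 1 to 20 and MT-RNR2 2 to 41 counts. In CPM, MT-RNR1 stood at 8.40, 6.76 and 6.92 in GFP high and 0.123, 0.261 and 0.0714 in GFP low libraries at 72 h, a log2 fold change of -5.69 ± 0.27 (edgeR adjusted p = 9.12e-13), and MT-RNR2 at 14.1, 11.04 and 10.998 against 0.216, 0.224 and 0.167 (-5.90 ± 0.28; edgeR adjusted p = 9.8e-13). Both were also lower in GFP low cells at 24 h (-1.81 ± 0.39 and -1.40 ± 0.36) at 2 to 41 counts, and at 48 h neither passed (-0.45 ± 0.64 and -0.30 ± 0.55).

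In GFP high cells MT-RNR1 rose by 6.56 ± 0.30 and MT-RNR2 by 6.20 ± 0.29 from 48 to 72 h, in all 3 libraries. The ratio of the 2 was steady there, with 1.63 ± 0.04 MT-RNR2 counts per MT-RNR1 count (SD, n = 3) where their lengths are 1559 and 954 bases. Per kilobase the 2 rRNAs stood at 7.73 and 7.71 CPM in this group. Counts of nuclear rRNA genes did not rise with them: they summed to 229 to 342 CPM in the same 3 libraries, within the 193 to 353 CPM of all libraries. MT-TV, between the 2 rRNA genes, had 2, 2 and 3 counts in those libraries and its highest counts, 8, 7 and 14, in GFP low cells at 72 h. Whether depletion or abundance set the rRNA counts was not tested.

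**Figure D4:**
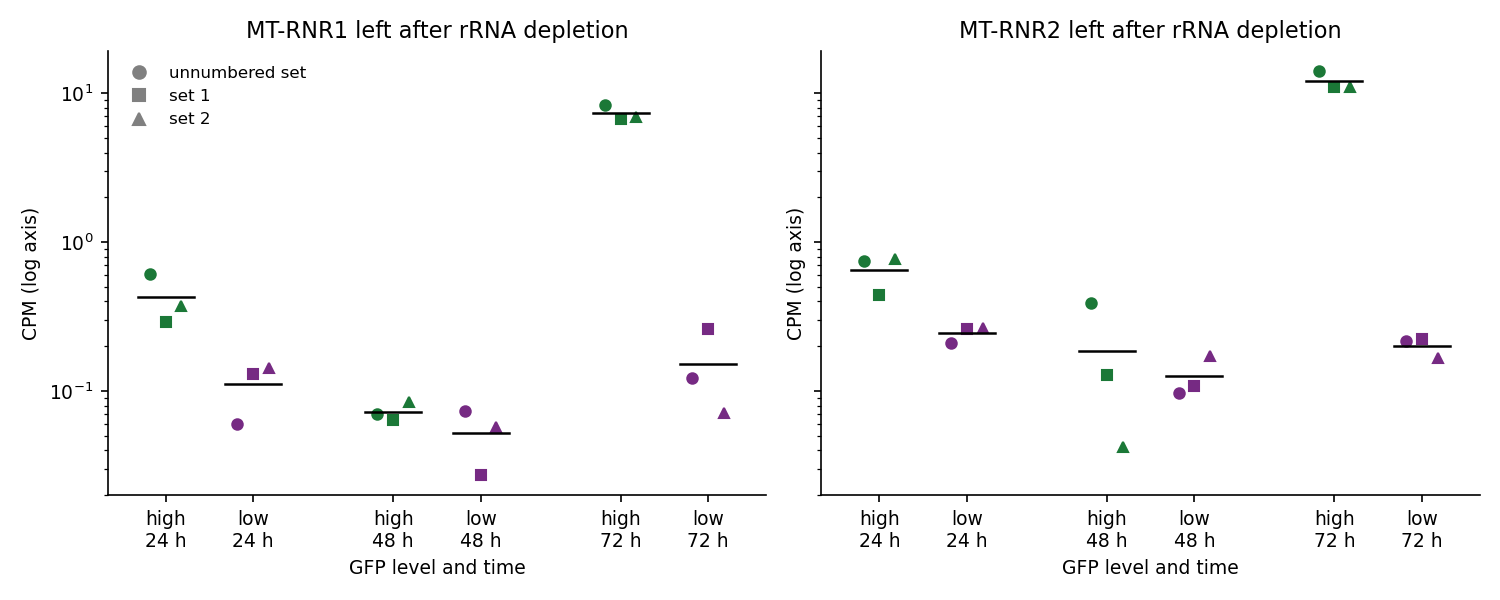
Level of MT-RNR1 (left) and MT-RNR2 (right) left after rRNA depletion in each library, in CPM on a log axis; lines are means of 3 libraries and shapes give the library set. The GFP high libraries at 72 h lie at 6.76 to 8.40 and 10.998 to 14.1 CPM, and every other library is below 1 CPM.

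Nuclear genes supply the other subunits of the same complexes, and their transcripts were compared with the mitochondrial mRNAs. Of 75 nuclear genes of complexes I, III, IV and V tested, 68 were lower and 1 higher at 24 h, with a median of -0.67. Over all genes 28.5% were lower and 29.3% higher with a median of 0.03, and the short nuclear genes described above had a median of -0.52. Transcripts of both genomes were thus lower in GFP low cells at the time when short transcripts were low in general, and with the length relation removed 6 of the 13 mitochondrial mRNAs were lower. Examples are NDUFAB1 and NDUFS5 of complex I (-0.98 ± 0.03 and -0.85 ± 0.03), UQCRH of complex III (-0.74 ± 0.03), COX7A2 of complex IV (-0.86 ± 0.03) and ATP5PB of complex V (-0.90 ± 0.03). At 48 h the nuclear genes had a median of 0.00, with 5 higher and 11 lower (10.6% and 13.2% of all genes) and quartiles of -0.07 and 0.05, where the heavy-strand mRNAs had -0.42. At 72 h their median was 0.03, with 16 higher and 5 lower (12.9% and 13.5% of all genes) and quartiles of -0.02 and 0.09, where the heavy-strand mRNAs had 0.53. The lowest nuclear value at 48 h, -0.22, was above every heavy-strand mRNA, and the highest nuclear value at 72 h, 0.44, was above MT-ND3 alone. The 4 genes of complex II, which has no mitochondrially encoded subunit, were 3 lower and 1 higher at 24 h, with SDHD at -0.81 ± 0.03 and SDHA at 0.11 ± 0.04. None of them passed at 48 h, and SDHB alone did at 72 h (-0.11 ± 0.03). By complex, the nuclear medians at 24 h were -0.52 for 37 genes of complex I, -0.67 for 9 of complex III, -0.74 for 11 of complex IV and -0.80 for 18 of complex V, and those of later times lay between -0.04 and 0.04.

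**Figure D5:**
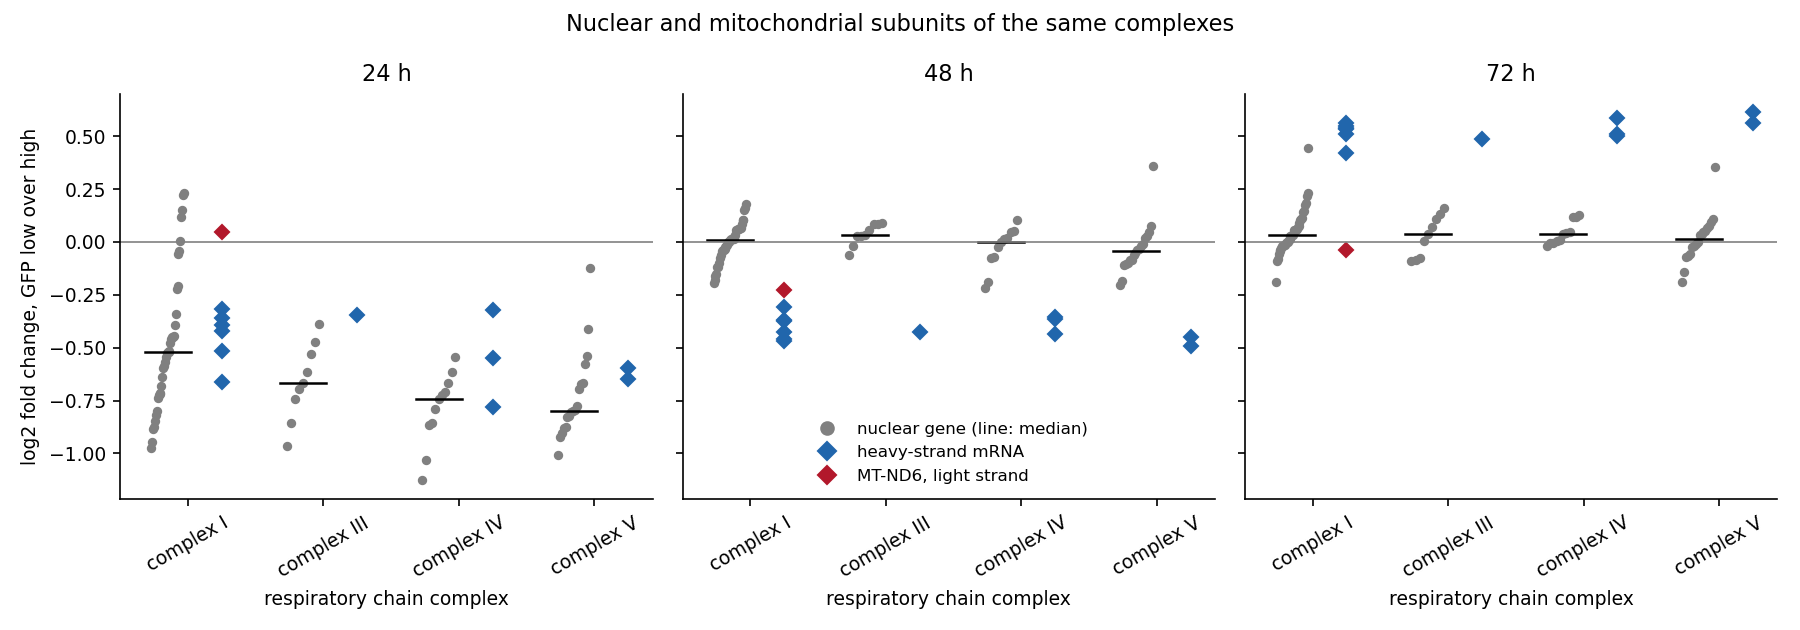
Log2 fold change of GFP low over GFP high cells at 24, 48 and 72 h for nuclear genes (grey, line at the median) and mitochondrial mRNAs (diamonds) of complexes I, III, IV and V. Both kinds lie below 0 at 24 h, with medians of -0.67 for the nuclear genes and -0.47 for the heavy-strand mRNAs, and at 48 and 72 h the nuclear medians lie at 0.00 and 0.03.

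The counts of the nuclear lists that follow stand beside 28.5% of all genes lower and 29.3% higher at 24 h, 13.2% lower and 10.6% higher at 48 h, and 13.5% lower and 12.9% higher at 72 h, with medians over all genes of 0.03, -0.01 and 0.00. Nothing particular to a list is read from them. Among the nuclear genes that transcribe the mitochondrial genome, 7 of 8 tested were lower and 1 higher at 24 h, and the list's medians in order of time were -0.33, -0.07 and -0.11. TFB2M, which opens the promoter (-0.63 ± 0.04), and TFAM, which packages and bends the DNA (-0.42 ± 0.03), were lower, and POLRMT, the polymerase, was higher (0.27 ± 0.06). At 48 h none of the 8 passed, and at 72 h 5 were lower, by 0.10 ± 0.03 for TFAM and 0.21 ± 0.05 for MTERF3. POLRMT stood at 0.17 ± 0.07 at 72 h and did not pass. Of 23 genes for cleavage, stability and decay of mitochondrial RNA, 16 were lower and 4 higher at 24 h, 2 lower and 1 higher at 48 h, and 5 lower and 3 higher at 72 h (medians -0.24, -0.03 and -0.03). They include SUPV3L1, the helicase of the mitochondrial degradosome (-0.18 ± 0.03 at 72 h), TRMT10C, a subunit of the RNase P that cuts tRNAs from the precursor (-0.17 ± 0.03 at 72 h), SLIRP, which stabilises mRNAs (0.19 ± 0.04 at 72 h), and the polyadenylation enzyme MTPAP (-0.13 ± 0.03 at 48 h).

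For the genes that copy and hold mitochondrial DNA, 3 of 11 were higher and 3 lower at 24 h, 3 lower at 48 h and 4 higher at 72 h (medians -0.01, -0.05 and 0.06), at 24 h about the share of all genes. POLG, the replicative polymerase, stood at 0.17 ± 0.03, -0.17 ± 0.03 and 0.16 ± 0.03 at 24, 48 and 72 h and passed at each time. Of the 9 regulators of mitochondrial biogenesis, PPARGC1B, a coactivator, was higher at 24 h (0.32 ± 0.03), and PPRC1, another of its family, was lower at 48 h (-0.37 ± 0.03). In total, 3 were higher and 3 lower at 24 h, 1 higher and 3 lower at 48 h, and 1 higher and 1 lower at 72 h (medians 0.02, -0.07 and 0.01). Of 12 rRNA modification genes 9 were lower at 24 h, 2 at 48 h and 4 at 72 h, with 1 higher at each of the later times (medians -0.24, -0.01 and -0.06). Of 16 tRNA maturation genes 3 were higher and 9 lower at 24 h, 1 higher and 1 lower at 48 h, and 3 higher and 3 lower at 72 h (medians -0.14, -0.05 and -0.02). Of 10 genes of nucleotide supply, 1 was higher and 7 lower at 24 h, 2 higher and 1 lower at 48 h, and 3 higher and 2 lower at 72 h (medians -0.35, 0.00 and -0.01).

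The nuclear genome also carries copies of mitochondrial genes, of which 404 are in the table and 26 passed the filter. MTATP6P1 stood at -0.71 ± 0.03, -0.51 ± 0.03 and 0.60 ± 0.03 at 24, 48 and 72 h, beside -0.65, -0.49 and 0.61 for MT-ATP6, and MTND2P28 at -0.58 ± 0.06, -0.43 ± 0.06 and 0.60 ± 0.06, beside -0.52, -0.47 and 0.53 for MT-ND2. Where a copy is nearly identical to the mitochondrial gene, its counts can hold reads of mitochondrial RNA, and the split between the 2 is uncertain. How alike each copy is to its gene was not measured. In all, 1 copy was higher and 7 lower at 24 h, 2 lower at 48 h and 5 higher at 72 h, where the shares of all genes are those given above for the lists. The 7 lower copies of 26 at 24 h are about the 28.5% of all genes, and the medians of the copies were -0.46, -0.42 and 0.30.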

How the data were processed

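RNA of 18 libraries was sequenced after rRNA depletion (KAPA RNA HyperPrep with RiboErase), per the labels' protocols. The authors deposited whole-number counts of reads per gene in 1 table, with featureCounts columns per the file headers. STAR, Subread's featureCounts, FastQC, R 4.2.1 and hg38 are named in the list of tools, per the submitters' processing notes. Not given in the sources used here are the strand setting and how reads with several matches were treated, which decides how reads of nuclear copies are split. Columns name the group and the library set (unnumbered, 1 or 2) but not the sample's own number; they give days D1, D2 and D3, read here as 24, 48 and 72 h. Libraries held 27257876 to 55419458 counts, and replicates differed by more than sampling noise (chi-square 1.47 to 3.49 times its expectation). ANK2, broken over 3 lines, was left out.

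The model was edgeR 4.0.16 in R 4.3.3. After filterByExpr 16474 genes remained, 35 of the 37 mitochondrial ones among them. Libraries were scaled by TMM. Quasi-likelihood F tests on 6 group means had 12 residual degrees of freedom, and a gene was called at a Benjamini-Hochberg adjusted p below 0.05 across all 16474. SEs were taken as |log2 fold change| / sqrt(F). With a common biological coefficient of variation of 3.49%, even small differences are called. Shares per library were compared with exact permutation tests, 13 in all. Those on sums over several genes are given as values without a p. The script was tested on simulated counts.

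The members, the 13 nuclear lists, the 5 marker lists and the tests were chosen with earlier results of these data known. Some members of the marker lists are not reported here. The rule names all mRNA and rRNA genes, tRNA genes that passed the filter and, in each nuclear list, up to 2 called genes per direction and time, by smallest adjusted p. Counts and medians stand beside those over all genes in place of list tests.

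Libraries of 1 set deviated together from their group means. Over 45 same-set pairs the correlation was 0.103 to 0.309, over 90 other pairs its median was -0.107, and 18 of 18 libraries correlated best with their own set. The pairing comes from the column names. Alternatives were DESeq2 1.42.0, other scalings, no count filter, the set as replicate block, removal of the length relation by a lowess fit per library, other denominators for shares, and leaving out each library. Sequences are from GENCODE release 29 transcripts on GRCh38, and coordinates are those of the deposited table.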

Additional observations from a re-analysis of the deposited data

Results flagged for a closer look

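The difference between GFP low and GFP high cells changed from 24 to 72 h, by the test of the change itself (edgeR), for 23 of the 35 mitochondrial genes tested, where 22.2% of all genes were higher and 19.6% lower. Of the 23, 20 were higher, and MT-TE and the 2 rRNAs, which are what depletion left, were lower. The changes take in the 24 h differences, for which fewer mRNAs were called with the length relation removed. For the heavy-strand mRNAs the change was 0.98 for MT-ND1, 1.05 for MT-ND2, 0.82 for MT-CO1, 1.37 for MT-CO2, 1.16 for MT-ATP8, 1.26 for MT-ATP6, 1.06 for MT-CO3, 1.08 for MT-ND3, 0.90 for MT-ND4L, 0.91 for MT-ND4, 0.85 for MT-ND5 and 0.84 for MT-CYB on the log2 scale. For tRNAs it was 0.79 for MT-TF, 0.87 for MT-TI, 1.33 for MT-TM, 0.85 for MT-TW, 0.73 for MT-TD, 1.26 for MT-TK, 0.74 for MT-TH, 0.68 for MT-TT and -0.75 for MT-TE, and for the rRNAs -3.87 (MT-RNR1) and -4.51 (MT-RNR2). The mRNA share of counts changed by 2.03 percentage points, the share of MT-ND6 among mRNAs by -0.349 and the light-strand share of tRNA counts by -11.3. For the last of these, the order of the groups depends on MT-TT, a large part of the heavy-strand tRNA counts. By the group means, the direction of the change does not. Between 24 and 48 h 4 of the 13 mRNAs changed, where 22.1% of all genes were higher and 21.4% lower, so that this count is no more than the share over all genes. Between 48 and 72 h 12 did, all higher, where 5.19% of all genes were higher and 3.83% lower. Groups of 3 libraries are too small for a test of single outlying libraries.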

How the results depend on the processing

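Of 70 values of single genes, 70 kept direction and call with DESeq2's size factors in edgeR, with scaling from nuclear genes alone and with the library set as replicate block, 69 with DESeq2 and with no count filter, and 67 with total counts; 45 did with the length relation removed without a replicate block and 57 with it and the block. For the count of mRNAs called, the length relation gave 7 at 24 h (no block; 9 with the replicate block), and for GFP low cells at 72 against 24 h 6 (5 lower, 1 higher) or, with the block, 8 (6 lower, 2 higher). For the change from 24 to 48 h the count was 6 with total counts (4 lower, 2 higher), 7 with no filter, 9 with the replicate block, 9 with the length relation removed (all lower) and 11 with both (all lower); the cause was not tested. The replicate block changed none of the 70 single-gene calls. Signs turned with the length relation removed for MT-TI at 24 h (0.074, and 0.065 with the block), MT-TW (0.0027 without the block) and MT-TT (0.21 and 0.21). Without 1 library they turned for values that had not passed: MT-ND6 at 24 h (-0.00045) and 72 h (0.010) and MT-RNR2 at 48 h (0.75). Without 1 library in turn, 12 mRNAs were called at 24 h, 13 at 48 h and 12 at 72 h, each time the reported count, and the mRNA share differed by -0.920 to -0.747, -0.831 to -0.755 and 1.12 to 1.21 points. Depth limits the tRNA and rRNA genes: MT-TY, MT-TS2, MT-TK, MT-TC, MT-TL1, MT-TG and MT-TR, of those tested, had under 50 counts in every library.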
